A study of Sus scrofa with 2 samples.

Results

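The BCL2 family decides whether a cell under stress releases mitochondrial cytochrome c and dies. Guardian members such as BCL2, BCL-xL (gene BCL2L1), MCL1 and BCL2A1 hold the pore-forming effectors BAX and BAK1 in check, and BH3-only members such as BIM (BCL2L11), NOXA (PMAIP1) and PUMA (BBC3) neutralise the guardians. In the thymus, double-positive cells are known to depend on BCL-xL while they wait for selection, whereas mature T cells depend on BCL2 and MCL1, and BIM is known for its part in the death of self-reactive cells.

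The 9 family genes BCL2, BCL2L1, BCL2A1, MCL1, BCL2L11, BAX, BAK1, BBC3 and PMAIP1 were looked up by symbol among the 21301 genes of the deposited pig matrices. Symbols matched for 4 of them, BCL2L1 (ENSSSCG00000035357), BCL2A1 (ENSSSCG00000040010), MCL1 (ENSSSCG00000039314) and PMAIP1 (ENSSSCG00000026454). BAK1 (ENSSSCG00000001516) and BBC3 (ENSSSCG00000003112) were named through their gene IDs alone and are described beside them, outside the counts of members. BCL2, BCL2L11 and BAX were not analysed here. The handover from BCL2L1 to BCL2 is therefore described only from the side of BCL2L1, and the pro-death side only from PMAIP1, BBC3 and BAK1.

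The data are 1 single-cell library of total thymocytes and 1 of invariant natural killer T (iNKT) thymocytes from untreated pigs of mixed breed aged 22 weeks, with the cells of 2 pigs pooled in each. iNKT cells are T cells with a nearly fixed receptor for lipid antigens. They were enriched with magnetic beads, a step not described for the total thymocytes, so cell kind, bead selection and library cannot be told apart in any comparison of iNKT with total cells. After filtering, 8026 total thymocytes with a median of 2414.5 transcript molecules (unique molecular identifiers, UMIs) and 11273 iNKT thymocytes with a median of 4210 UMIs remained, and 30 cell barcodes occurred among the kept cells of both libraries. ZBTB16, the lineage factor of iNKT cells, stood at 224 CPM (UMIs of the gene per 1000000 UMIs of the group) in the iNKT library and at 0.385 CPM in total thymocytes, and CD3E, a part of the T cell receptor complex, at 1228 and 1109 CPM. With 1 library of each kind no difference below has a replicate check, and each interval in parentheses is a 95% interval for counting error only.

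Total thymocytes fell into 14 clusters, built without the family genes and named from marker genes. The stages used below are the early pre-TCR-like cells (2 clusters, 1084 cells), the double-positive-like cells (2 clusters, 2776 cells), the post-selection-like cells (1 cluster, 1110 cells), the naive mature T-like cells (1 cluster, 989 cells, called mature below) and the gamma-delta T-like cells (1 cluster, 553 cells). TNFRSF4, GZMM, GZMH, CD40LG, CRTAM and S1PR1 were among the leading genes of the mature cluster, so it joins helper-type, cytotoxic-type and regulatory-type cells. Its 8 matched cytotoxic markers summed to 659 CPM, against 111 CPM in post-selection-like and 123 CPM in double-positive-like cells, with GNLY, KLRB1 and TYROBP at 0 UMIs. The 4 erythroid markers summed to 4295 CPM in the post-selection-like cluster and to 17.1 CPM or less in the other stages and in iNKT cells. In the post-selection-like cluster the erythroid markers held 10389 of 2418623 UMIs. The part of erythroid RNA and of cytotoxic-type cells in the values below was not tested.

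BCL2L1 was the member with the widest swing along the pathway. It stood at 79.0 CPM (69.5 to 89.4) in early pre-TCR-like cells and at 315 CPM (298 to 333) in double-positive-like cells. It was at 36.4 CPM (29.2 to 44.8) in post-selection-like, 24.8 CPM (19.8 to 30.8) in mature and 32.3 CPM (25.9 to 39.8) in gamma-delta T-like cells. Double-positive-like cells were thus far above every other stage, and the intervals of the latter 3 groups overlapped between neighbours.

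The 2 double-positive-like clusters had 279.5 and 361 CPM of BCL2L1. The 2 early clusters had 67.1 and 136 CPM, the higher value in the smaller one of 112 cells. Among dividing cells the S phase-like cluster had 60.1 CPM and the 3 cycling-like clusters 59.7, 32.6 and 15.9 CPM. Dividing cells therefore stayed below both double-positive-like clusters, and the lowest value of the library lay in 1 of the cycling-like clusters.

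**Figure D1:**
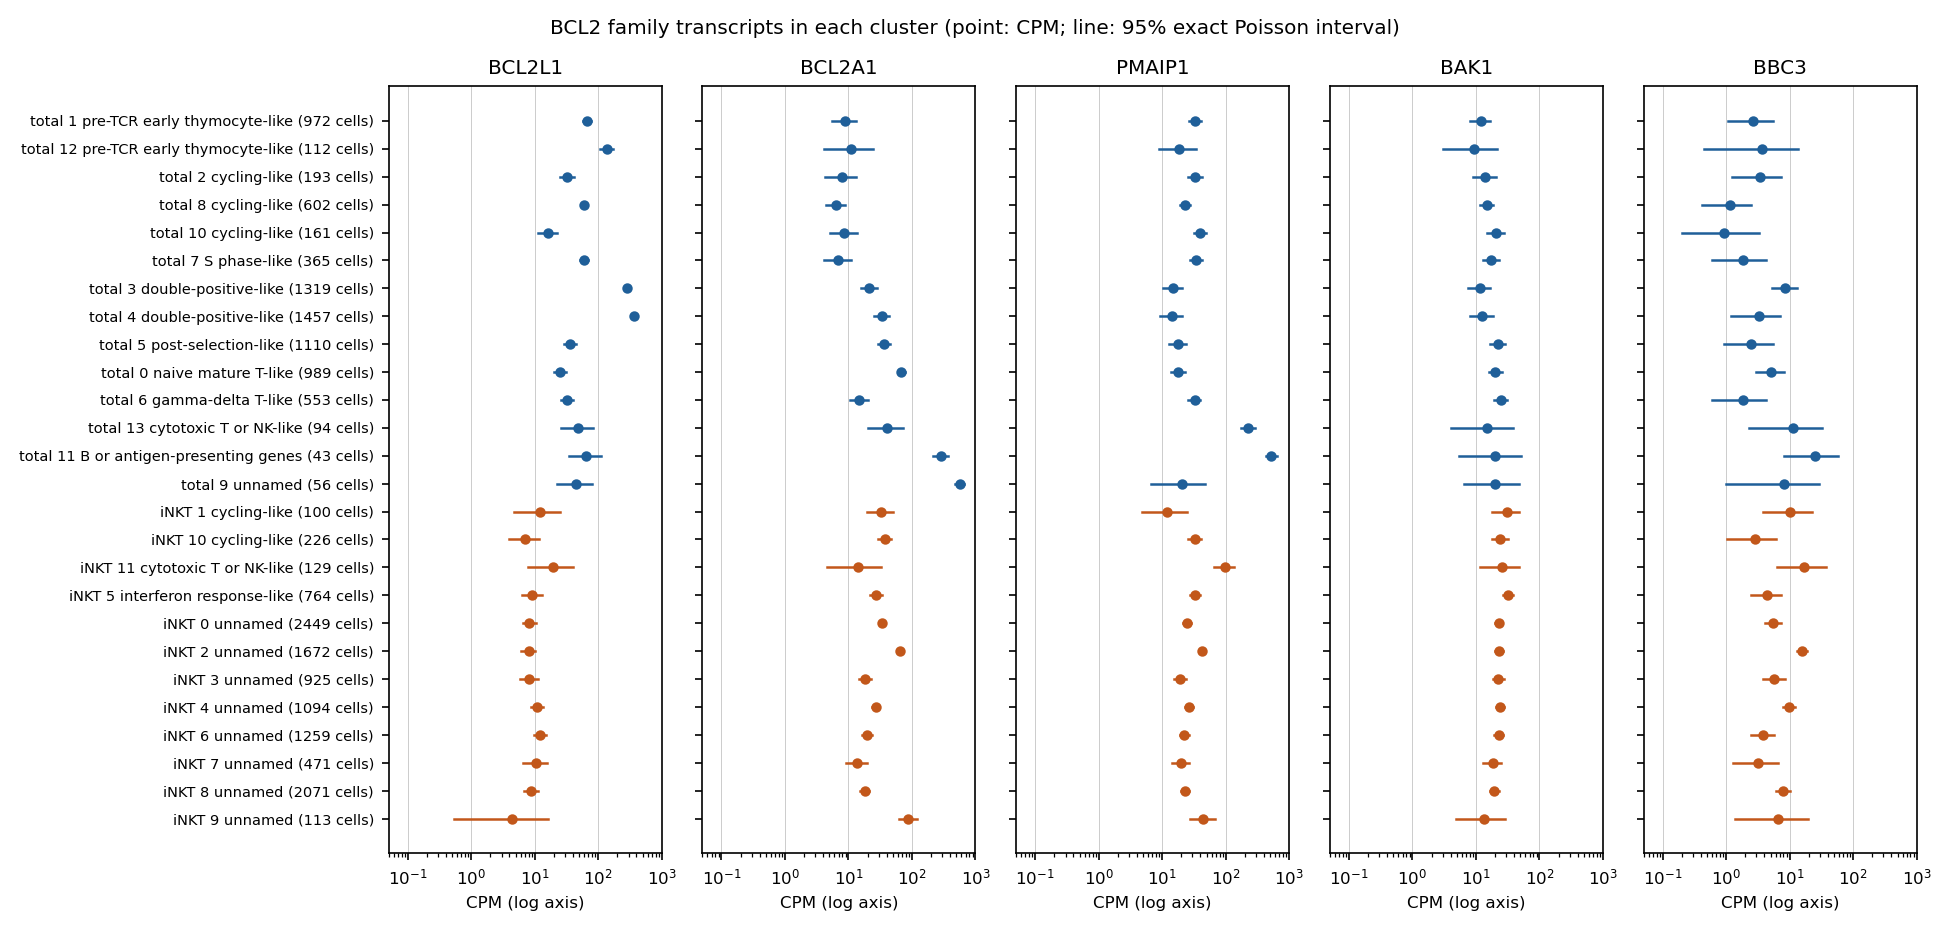
CPM of BCL2L1, BCL2A1, PMAIP1, BAK1 and BBC3 (log axis) in each of the 14 clusters of total thymocytes (blue) and the 12 clusters of iNKT thymocytes (orange), with exact 95% Poisson intervals as lines. BCL2L1 is highest in the 2 double-positive-like clusters (279.5 and 361 CPM) and at most 19.7 CPM in every iNKT cluster, while BCL2A1 is highest in the unnamed total cluster 9 (562 CPM).

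Read as ratios, BCL2L1 was 3.99-fold higher (3.48 to 4.59) in double-positive-like than in early cells. It was 8.66-fold lower (6.98 to 10.9) in post-selection-like than in double-positive-like cells, and 12.7-fold lower (10.2 to 16.1) in mature cells. On the log2 scale the post-selection-like ratio, -3.11, ran from -3.95 (at most 5% mitochondrial UMIs) to -2.54 (cells thinned to 2000 UMIs) over the alternatives, past 2-fold in all 9. From post-selection-like to mature cells the ratio was 0.682 (0.499 to 0.931). Most of the difference between double-positive-like and mature cells was therefore already present in the post-selection-like cluster.

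The share of cells with a BCL2L1 UMI was likewise highest in double-positive-like cells. It was 36.1% of double-positive-like cells at a median of 1294 UMIs, 7.03% of post-selection-like cells at 1956 UMIs and 7.08% of mature cells at 3195 UMIs. After every cell was thinned to 2000 UMIs, which left 510 double-positive-like, 530 post-selection-like and 912 mature cells, the shares were 28.8%, 5.66% and 3.84%. Post-selection-like and mature cells were thus level before thinning. No stage is known to lack BCL2L1, so RAG1, a recombinase gene switched off after selection, is given as an upper gauge of free RNA. RAG1 in mature cells was at 2.76% of its double-positive-like level, RAG2 at 3.09% and CD1E at 3.73%, whereas BCL2L1 was at 7.87%. In post-selection-like cells BCL2L1 was at 11.5% of the double-positive-like level, RAG1 at 3.27%, RAG2 at 8.07% and CD1E at 24.9%.

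BCL2A1, a guardian induced by antigen receptor and NF-kB signalling, ran the other way after the double-positive stage, though both genes were higher in double-positive-like than in early cells. It stood at 9.16 CPM (6.13 to 13.2) in early cells, 26.7 CPM (21.9 to 32.1) in double-positive-like cells, 36.8 CPM (29.6 to 45.3) in post-selection-like cells and 68.1 CPM (59.6 to 77.6) in mature cells. Gamma-delta T-like cells had 14.7 CPM (10.5 to 19.98). Mature cells were the highest of these stages, and early and gamma-delta T-like cells the lowest. The ratio was 2.56 (2.03 to 3.24) for mature over double-positive-like cells, 1.38 (1.03 to 1.84) for post-selection-like over double-positive-like cells and 1.85 (1.44 to 2.39) for mature over post-selection-like cells. Mature over double-positive-like cells fell to a log2 ratio of 0.56 for BCL2A1 when the clusters were rebuilt at Leiden resolution 2, short of 2-fold. With groups set by UMI gates, which left 107 post-selection-like cells, post-selection-like over double-positive-like cells rose from a log2 ratio of 0.46 to 2.06, past 2-fold, and mature over post-selection-like cells turned to -0.27.

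MCL1, a short-lived guardian that T cells need at every stage, had almost no counted UMIs in either library. It had 2 UMIs in 2 of 8026 total thymocytes and 0 UMIs in 11273 iNKT thymocytes, which allows a share of up to 0.0266% of cells with a UMI (3 counts over the cells, not a Clopper-Pearson bound). Whether the gene model used for counting reaches the end of the MCL1 transcript was not tested, so these counts are not read as absence of expression. Its level was not compared between groups.

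PMAIP1, BAK1 and BBC3, the pro-death genes of the rule, changed less along the pathway than BCL2L1. PMAIP1 stood at 30.3 CPM (24.6 to 37.0) in early cells, 14.7 CPM (11.2 to 18.8) in double-positive-like, 17.8 CPM (12.9 to 23.9) in post-selection-like, 17.9 CPM (13.7 to 23.1) in mature and 32.3 CPM (25.9 to 39.8) in gamma-delta T-like cells. It was 2.07-fold lower (1.49 to 2.901) in double-positive-like than in early cells. Its ratio was 1.21 (0.802 to 1.82) for post-selection-like and 1.22 (0.843 to 1.78) for mature over double-positive-like cells, and both intervals spanned equality. These values moved with the grouping. With UMI gates the post-selection-like log2 ratio was 1.06, past 2-fold. The mature one ran from -0.27 (thinned cells) to 1.495 (at most 5% mitochondrial UMIs). The value of 1.495 is past 2-fold but was not counted as different, since counting also needs at least 100 UMIs over both groups.

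BAK1, the pore-forming effector, stood at 12.01 CPM (8.91 to 15.8) in double-positive-like, 21.9 CPM (16.4 to 28.7) in post-selection-like and 20.3 CPM (15.8 to 25.8) in mature cells. The ratio was 1.82 (1.22 to 2.74) for post-selection-like and 1.69 (1.16 to 2.49) for mature over double-positive-like cells, below the 2-fold bound used here. Over the alternatives the post-selection-like log2 ratio ran from -0.70 with UMI gates to 1.09 with equal weight per cell, the latter past 2-fold. The mature one, 0.76, ran from 0.48 with UMI gates to 1.22 with at most 5% mitochondrial UMIs. It was 1.13 with thinned cells. The mature values past 2-fold were not counted as different, since counting also needs at least 100 UMIs over both groups. BBC3 was sparse, with 26 UMIs in double-positive-like, 6 in post-selection-like and 17 in mature cells. These gave 6.24 CPM (4.08 to 9.15), 2.48 CPM (0.910 to 5.40) and 5.08 CPM (2.96 to 8.14), with overlapping intervals. The BBC3 log2 ratio was -1.33 for post-selection-like and -0.30 for mature over double-positive-like cells. It was 1.03 for mature over post-selection-like cells. The values of -1.33 and 1.03 are past 2-fold but were not counted as different, since the groups held too few BBC3 UMIs. Over the alternatives the former ran from -2.49 to 0.94 and the latter from 0.02 to 1.72.

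**Figure D2:**
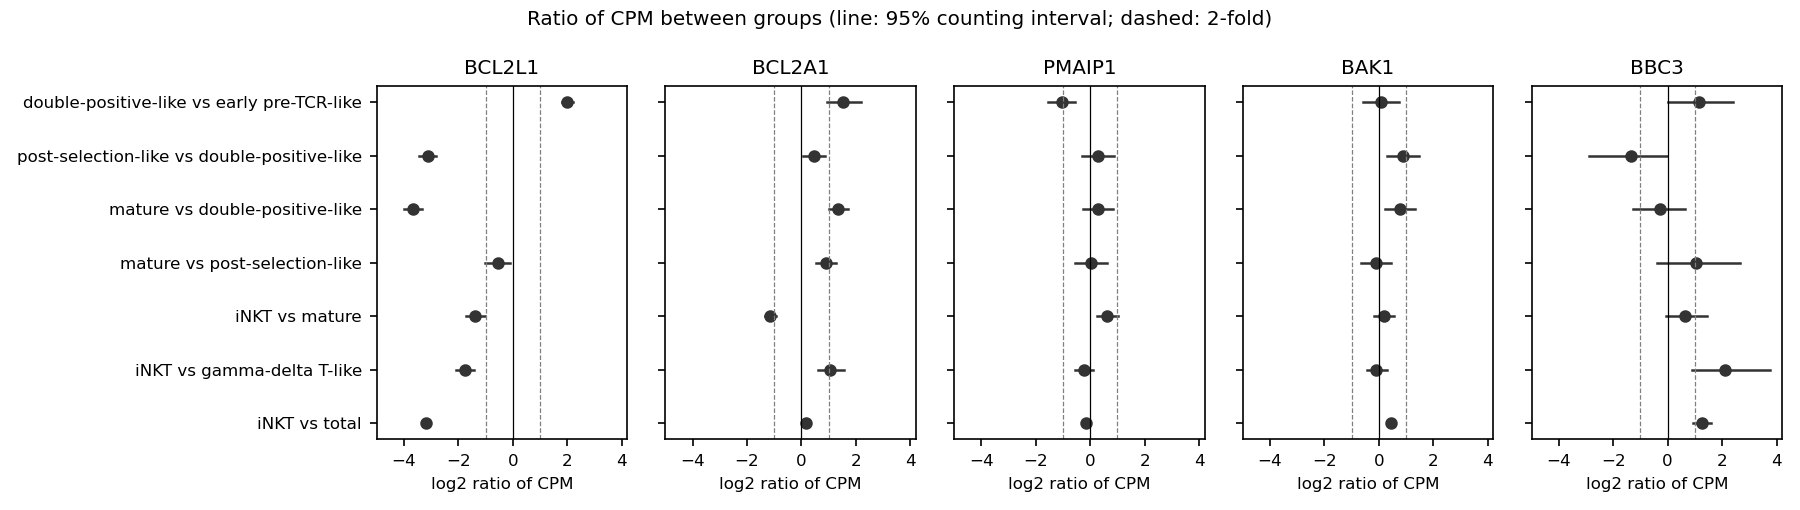
Log2 ratio of CPM for 5 family genes in 7 pairs of groups, with 95% counting intervals as lines and 2-fold marked by dashed lines. BCL2L1 lies at -3.67 for mature against double-positive-like cells and at -1.39 for iNKT against mature cells, and BCL2A1 at 1.35 and -1.15.

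A gene was counted as different where the CPM of both groups differed at least 2-fold and they held at least 100 UMIs together. BCL2L1, BCL2A1 and PMAIP1 reached that depth in the comparisons counted here and MCL1 did not. Between mature and double-positive-like cells 2 members differed, BCL2L1 lower and BCL2A1 higher, where 19.2% of 6603 genes did (8.36% higher, 10.8% lower). Between post-selection-like and double-positive-like cells 1 member differed, BCL2L1, where 13.4% of 6160 genes did (5.13% higher, 8.25% lower). Between mature and post-selection-like cells 0 members differed, where 6.85% of 5797 genes did (4.38% higher, 2.47% lower). Between double-positive-like and early cells 3 members differed, BCL2L1 and BCL2A1 higher and PMAIP1 lower, where 11.2% of 6563 genes did (5.67% higher, 5.52% lower). With so many genes past 2-fold and 3 members counted, nothing particular to the family is read from these counts.

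The clusters could be replaced by transcripts of 2 stage markers. Non-dividing total thymocytes were split by UMIs of RAG1 or RAG2, which mark cells still rearranging their receptors, and of CCR7, which marks mature cells. BCL2L1 was at 205 CPM in the 3069 cells with RAG and without CCR7, at 73.0 CPM in the 92 cells with both, at 79.8 CPM in the 2240 cells with neither and at 25.9 CPM in the 1090 cells with CCR7 alone. BCL2A1 was at 19.7, 79.3, 44.3 and 76.0 CPM in the same order. Cells with both transcripts lay between the ends for BCL2L1 and level with CCR7-only cells for BCL2A1. Their median of 4914 UMIs was above the medians of the other 3 sets, which were 1715, 1926 and 3211, and the part of doublets in them was not tested.

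**Figure D3:**
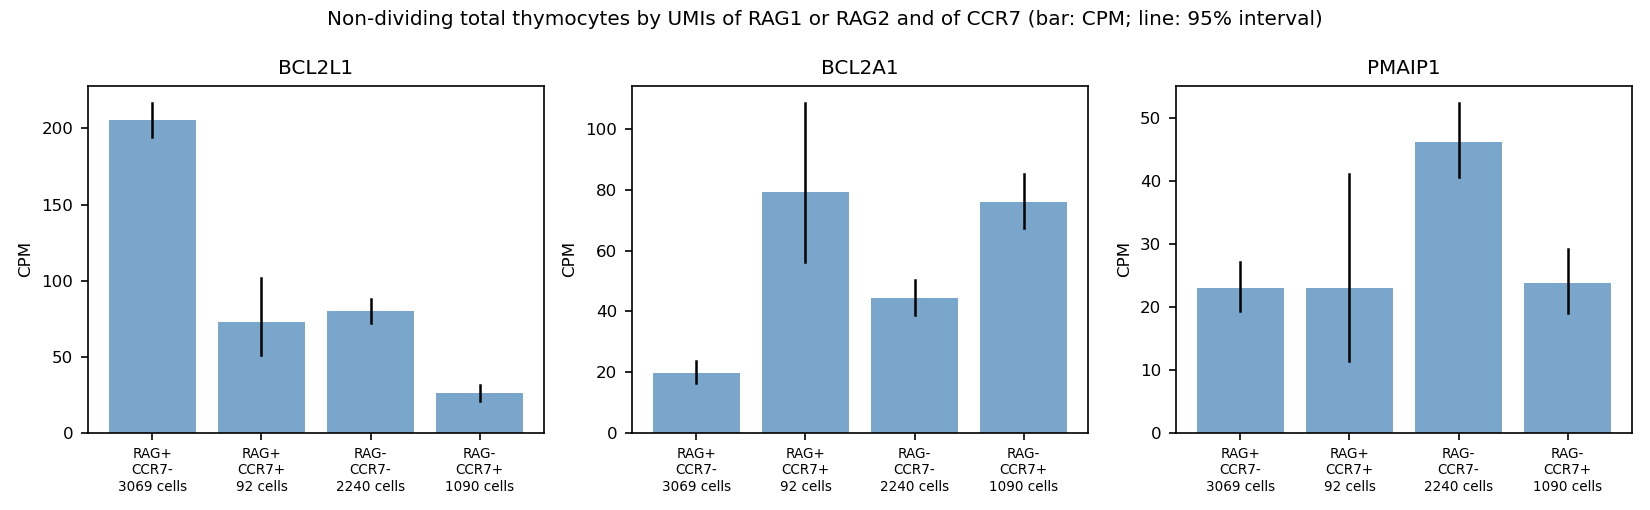
CPM of BCL2L1, BCL2A1 and PMAIP1 (bars, linear axes from 0) in non-dividing total thymocytes with or without a UMI of RAG1 or RAG2 and of CCR7, with 95% Poisson intervals as lines. BCL2L1 is at 205 CPM with RAG alone and 25.9 CPM with CCR7 alone, and BCL2A1 at 19.7 and 76.0 CPM.

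Within the post-selection-like cluster, the 110 cells with a UMI of NR4A1, an early gene of antigen receptor signalling, had 82.7 CPM of BCL2A1 and the 1000 without had 31.1 CPM, a ratio of 2.66 (1.56 to 4.36). Their BCL2L1 ratio was 0.592 (0.211 to 1.35), and only 6 BCL2L1 UMIs lay in the cells with NR4A1.

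Within the mature cluster BCL2A1 was uneven. The 45 cells with a UMI of FOXP3, the regulatory T cell factor, had 267 CPM (195 to 358) and the other 944 cells 57.6 CPM (49.6 to 66.6), a ratio of 4.64 (3.27 to 6.46). BCL2L1 was at 59.4 CPM in the former and 23.0 CPM in the latter, a ratio of 2.59 (1.19 to 5.03) that rests on 10 UMIs in the FOXP3 cells. Mature cells with CD4 and no CD8 UMI (140 cells) had 93.6 CPM (68.8 to 124) of BCL2A1, and those with CD8 and no CD4 UMI (435 cells) had 55.6 CPM (44.2 to 69.0). BCL2L1 was at 27.9 and 23.7 CPM in these 2 sets, with overlapping intervals.

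The highest BCL2A1 level of any cluster with at least 50 cells was in the unnamed cluster 9 of total thymocytes. Its 56 cells had 562 CPM (473 to 664), 24.4-fold above the rest of the library (20.2 to 29.4), and 47.1% of its thinned cells had a BCL2A1 UMI. XCL1, CCL4, NR4A3, TNFRSF9, TNFRSF4 and CTLA4 led this cluster, genes of recently stimulated T cells. Its NR4A1 stood at 501 CPM, against 94.3 CPM in post-selection-like and 29.9 CPM in mature cells. BCL2L1 in cluster 9 was at 44.5 CPM (22.2 to 79.6) from 11 UMIs, an interval that overlapped those of mature, post-selection-like and gamma-delta T-like cells. Its ratio to the rest of the library, which includes the double-positive-like cells, was 0.520 (0.259 to 0.932).

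PMAIP1 had its own peak. The cytotoxic T or NK-like cluster of total thymocytes (94 cells) had 226 CPM (173 to 290), 7.81-fold above the rest of the library (5.92 to 10.1), and its counterpart in the iNKT library (129 cells) had 95.9 CPM (66.4 to 134), 3.54-fold above the rest (2.44 to 4.97). Cluster 11 of total thymocytes, led by HLA-DRA, CXCL10, SLA-DQB1 and JCHAIN, had 525 CPM of PMAIP1 and 287 CPM of BCL2A1, but it holds 43 cells and falls under the minimum of 50 cells per cluster. Outside these 2 small clusters PMAIP1 ran from 14.2 to 39.6 CPM in total thymocytes.

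In iNKT thymocytes BCL2L1 was low throughout. It stood at 9.40 CPM over the whole iNKT library and 85.2 CPM over total thymocytes, 9.06-fold lower (8.22 to 9.99), and 1 member differed at least 2-fold where 28.5% of 10431 genes did (11% higher, 17.5% lower). BCL2A1 was at 30.9 and 27.7 CPM, a ratio of 1.12 (1.03 to 1.22), and PMAIP1 at 27.6 and 30.8 CPM, a ratio of 0.895 (0.823 to 0.974). On the log2 scale the BCL2L1 ratio, -3.18, became -2.29 without the double-positive-like clusters and -4.13 when cells were weighted equally. The BCL2A1 log2 ratio, 0.16, turned to -0.48 when dividing clusters were left out, -0.04 with thinned cells and -0.03 with equal weights, and was 0.47 with TMM scaling. The PMAIP1 log2 ratio, -0.16, turned to 0.15 with TMM scaling and 0.10 with equal weights. BBC3 was at 7.75 and 3.22 CPM, 2.41-fold higher in iNKT (1.92 to 3.05), a log2 ratio of 1.27 that became 0.83 when cells were weighted equally and 0.84 when dividing clusters were left out, both short of 2-fold. The double-positive-like cells make up 2776 of the 8026 total thymocytes and 4163439 of their 28567412 UMIs, and the dividing clusters hold more of the UMIs. The comparison with the mature cluster therefore bears more closely on the iNKT state.

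The iNKT cells compared with mature cells were the 10947 outside the cycling-like clusters. They still included cluster 3 (925 cells), with CDT1 and MCM5 among its leading genes, the cytotoxic T or NK-like cluster and the HLA-DRA-led cluster 9. The 7 S phase markers summed to 123 CPM in these iNKT cells and to 122 CPM in mature cells. Against mature cells, these iNKT cells had 9.47 CPM (8.64 to 10.4) of BCL2L1, 2.62-fold lower (2.05 to 3.31). They were also 3.41-fold lower (2.68 to 4.29) than gamma-delta T-like cells. BCL2A1 was at 30.6 CPM (29.1 to 32.2) in iNKT cells, 2.22-fold lower (1.93 to 2.56) than in mature cells and 2.09-fold higher (1.53 to 2.93) than in gamma-delta T-like cells. The mature level of BCL2A1 includes the 45 cells with a FOXP3 UMI, and the other 944 mature cells had 57.6 CPM. The part of the FOXP3 cells in the 2.22-fold value was not tested. Against mature cells 2 members differed at least 2-fold, both lower, where 15% of 9499 genes did (7.48% higher, 7.55% lower). Against gamma-delta T-like cells 2 members reached it, BCL2L1 lower and BCL2A1 higher, where 22.9% of 9530 genes did (10.2% higher, 12.7% lower). Apart from the RAG1 subtraction below, the members were not compared with gamma-delta T-like cells under the alternatives. That group held 301 cells with at least 200 genes per cell and 159 with at most 5% mitochondrial UMIs. The median of all genes was itself -0.15 on the log2 scale against mature cells and moved to 0.10 with TMM scaling, under which BCL2A1 was at -0.91 and no longer reached 2-fold. BCL2A1 also fell short of it at Leiden resolution 2 (-0.34), with at most 5% mitochondrial UMIs (-0.72) and with 15 principal components (-0.80).

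RAG1, the upper gauge of free RNA, stood at 23.0 CPM in mature and 0.198 CPM in iNKT cells. With 2.76% of the double-positive-like BCL2L1 level subtracted, mature cells kept 16.1 CPM, and iNKT cells were 1.70-fold lower, short of 2-fold. The same step with the RAG1 share of gamma-delta T-like cells, 4.0%, left them 19.7 CPM, and iNKT cells were 2.08-fold lower.

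BCL2L1 in the 12 clusters of the iNKT library ran from 4.43 to 19.7 CPM, all under the uncorrected 24.8 CPM of the mature cluster. The highest of these values belonged to the cytotoxic T or NK-like cluster and rested on 7 UMIs. Of iNKT cells thinned to 2000 UMIs, 1.93% had a BCL2L1 UMI, against 3.84% of mature cells. With at most 5% of mitochondrial UMIs the iNKT to mature difference was -0.86 on the log2 scale, and -0.94 after removal of the highest doublet scores, both short of 2-fold.

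PMAIP1, BAK1 and BBC3 were each within 2-fold of their mature-cell levels in iNKT cells, with exceptions under other settings for PMAIP1 and BBC3. PMAIP1 stood at 27.5 CPM (26.1 to 29.0), 1.54-fold above mature cells (1.19 to 2.02), a log2 ratio of 0.62 that ran from -0.04 (at most 5% mitochondrial UMIs) to 1.03 (15 principal components) over the alternatives. BAK1 stood at 23.0 CPM (21.7 to 24.3), a ratio of 1.13 (0.885 to 1.47), and BBC3 at 7.93 CPM (7.17 to 8.74), a ratio of 1.56 (0.962 to 2.71). The BBC3 log2 ratio of 0.64 became 1.43 with UMI gates and 1.08 at Leiden resolution 2, both past 2-fold. Against gamma-delta T-like cells, where BBC3 rested on 5 UMIs, its ratio was 4.32 (1.84 to 13.4).

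Cluster 2 of the iNKT library was above the other iNKT cells in several members at once, though other iNKT clusters reached higher levels. Its 1672 cells, led by CCL4, FCER2, SPRY4, PTGS2, CTLA4 and CD69, had 64.0 CPM of BCL2A1, 2.55-fold above the other iNKT cells (2.29 to 2.83). They had 41.9 CPM of PMAIP1, 1.67-fold above (1.48 to 1.89), and 15.7 CPM of BBC3, 2.47-fold above (1.98 to 3.05). BAK1 at 23.5 CPM (1.02-fold, 0.867 to 1.19) and BCL2L1 at 8.03 CPM (0.833-fold, 0.630 to 1.08) were not set apart. A guardian and 2 BH3-only genes were thus high in the same cluster.

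Splits by single transcripts within iNKT cells gave smaller ratios. The 2409 cells with a CD69 UMI had 45.9 CPM of BCL2A1 and the 8538 without had 25.6 CPM, a ratio of 1.79 (1.62 to 1.99), and the PMAIP1 ratio was 1.55 (1.38 to 1.73). Cells with an IL4 UMI had ratios of 1.501 (1.303 to 1.72) for BCL2A1 and 1.29 (1.10 to 1.51) for PMAIP1. For BCL2A1 the ratio was 1.40 (1.19 to 1.63) with NR4A1, 1.26 (1.14 to 1.39) with S100A4 and 0.980 (0.886 to 1.08) with ISG15, an interferon-induced gene. BCL2L1 stayed between 0.863 and 1.11 in all 6 splits, with every interval spanning equality. CD69-positive cells had a median of 4523 UMIs and the rest 4073, and the part of depth in these ratios was not tested.

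**Figure D4:**
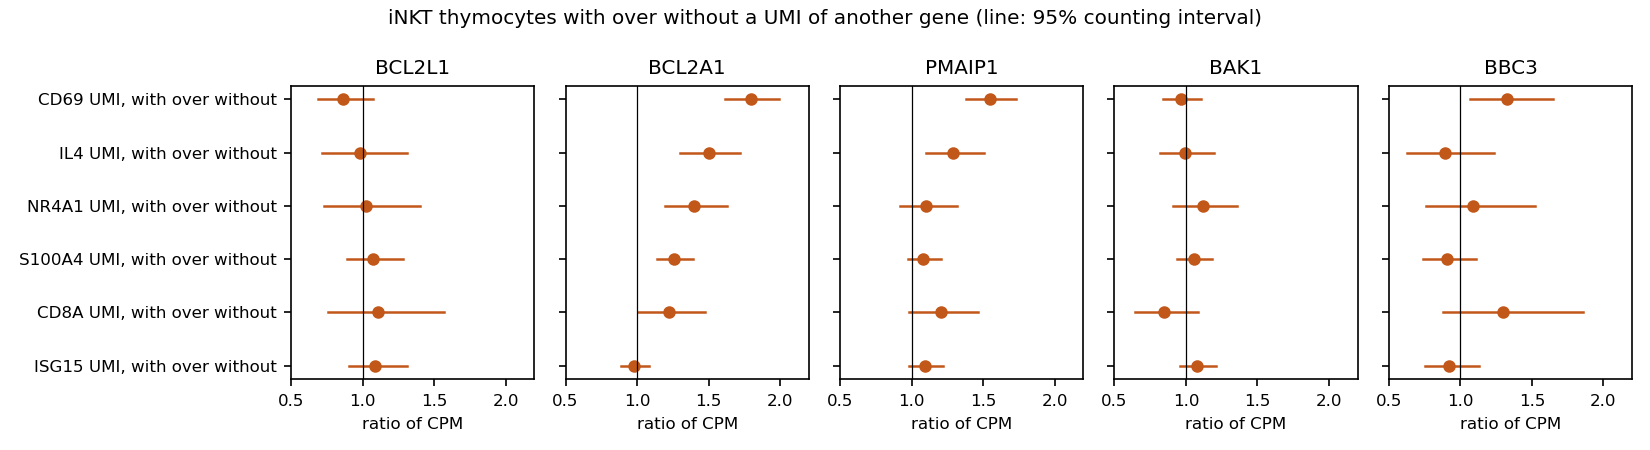
Ratio of CPM in iNKT thymocytes outside the cycling-like clusters with over without a UMI of 6 genes, for 5 family genes, with 95% counting intervals as lines. BCL2A1 is at 1.79 and PMAIP1 at 1.55 for CD69, and BCL2L1 is near equality in all 6 splits.

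Few cells held UMIs of 2 members together. Among thinned cells, BCL2L1 and BCL2A1 were both seen in 1.18% of 510 double-positive-like, 0.189% of 530 post-selection-like and 0 of 912 mature cells, where 3 counts over the cells allow up to 0.329%. BCL2A1 alone was seen in 2.94%, 6.23% and 9.54% of these cells, and BCL2L1 alone in 27.6%, 5.47% and 3.84%. In iNKT cells BCL2A1 and PMAIP1 were seen together in 38 of 10639 cells. At this depth a cell without a UMI may still express the gene. The joint shares were not set against those that the single shares alone would give, so no exclusion of 1 gene by another is read from them.

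Genes with a level pattern most like that of BCL2L1 were ranked by Pearson correlation of log2(CPM + 1) over the 13 clusters of total thymocytes with at least 50 cells, among 5549 genes. The clusters share 1 library, and their depths differ. CYB5A (0.940), GUCD1 (0.921), MED13L (0.920), CD2AP (0.915), ARID4B (0.914) and ZFP2 (0.910) came first, while RAG1 reached 0.769 and CCR7 -0.51. For BCL2A1, a ranking added after its values were seen, B3GNT2 (0.938), NDFIP2 (0.914), YRDC (0.911), LIN7C (0.901), NDFIP1 (0.894) and LYRM1 (0.893) came first. For PMAIP1, ranked on the same terms, OSTF1 (0.848), PTPN12 (0.818) and CCL5 (0.808) did.

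Of 18 further BCL2 family genes, 13 matched a symbol and 10 were deep enough between mature and double-positive-like cells. Of these, 0 were higher and 2 lower, and their median log2 ratio was -0.31 against -0.19 for all genes. BMF, a BH3-only gene, stood at 135 CPM in double-positive-like and 25.7 CPM in mature cells, 5.23-fold lower (4.16 to 6.65). BAD, another BH3-only gene whose product binds BCL-xL, stood at 70.4 and 26.3 CPM, 2.68-fold lower (2.10 to 3.44). Both were also low in post-selection-like cells, at 18.2 and 26.9 CPM, and stood at 184 and 46.5 CPM in the larger early cluster. Lower BCL2L1 in mature cells thus went with lower BMF and BAD, while BID, at 110 CPM in mature and 98.7 CPM in double-positive-like cells, was within 2-fold.

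**Figure D5:**
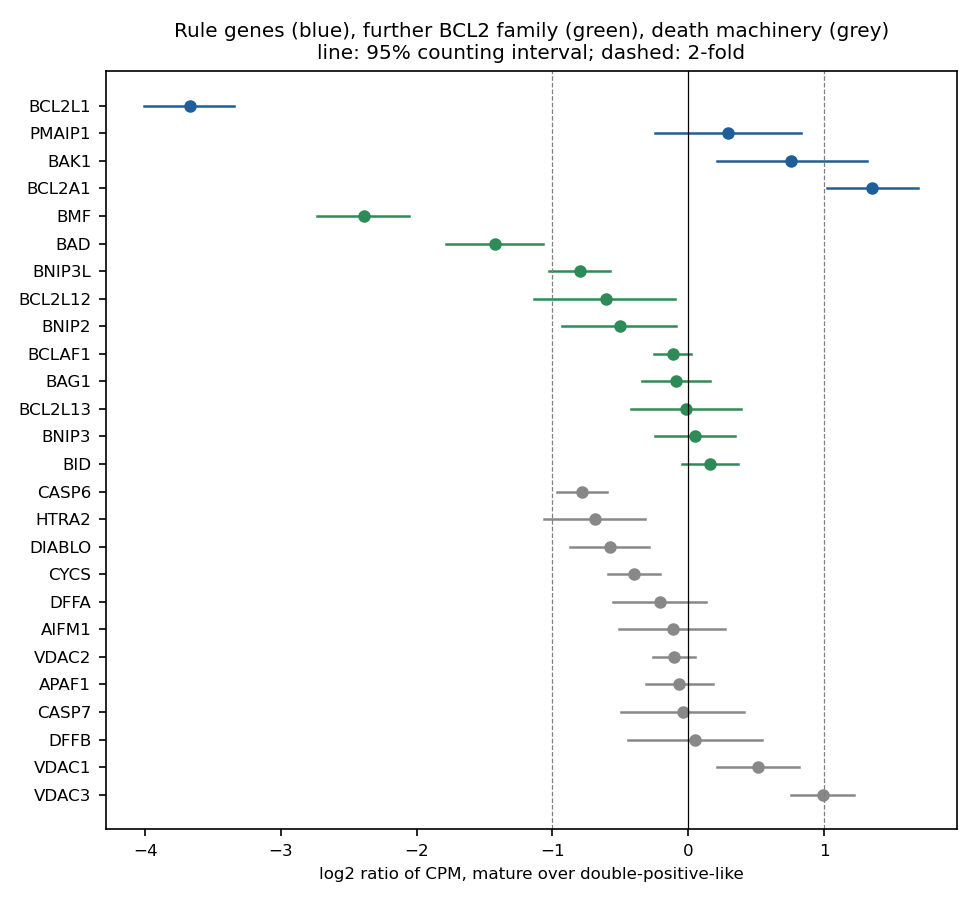
Log2 ratio of CPM, mature over double-positive-like cells, for the family genes looked up by the rule (blue), further BCL2 family genes (green) and mitochondrial death machinery (grey, 12 of the 13 genes drawn) with at least 100 UMIs, with 95% counting intervals as lines. BCL2L1 (-3.67), BMF (-2.39) and BAD (-1.42) lie beyond 2-fold on the low side and BCL2A1 (1.35) on the high side.

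Downstream of the family, 13 of 15 genes of the mitochondrial death machinery were deep enough in the same comparison, and 0 differed 2-fold in either direction. VDAC3, a channel of the outer mitochondrial membrane, was at 1.99-fold (1.69 to 2.33). In post-selection-like and double-positive-like cells VDAC3 stood at 141 and 61.2 CPM. Between these 2 stages 2 of 13 genes of the machinery were higher in post-selection-like cells and 0 lower. Over all 6160 genes 5.13% were higher and 8.25% lower. None of 3 caspase inhibitors (XIAP, BIRC3 and BIRC6) differed 2-fold in mature cells. Of 8 death receptor genes 1 was higher, CASP10, at 55.9 and 27.1 CPM, a ratio of 2.06 (1.62 to 2.62).

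Of 26 regulators of the family that were deep enough, 10 were higher and 4 lower in mature than in double-positive-like cells, with a median log2 ratio of 0.22. Over all 6603 genes 8.36% were higher and 10.8% lower, with a median of -0.19. KLF2 and FOXO1, factors of quiescent naive T cells, had 3 UMIs each in double-positive-like cells and stood at 236 and 103 CPM in mature cells, ratios of 328 (112 to 1594) and 144 (48.7 to 699). MYC was 14.7-fold higher (9.40 to 24.2). KLF2 was among the markers that named the clusters, so its ratio follows in part from the grouping.

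Between iNKT and mature cells, 1 of 11 further family genes and 4 of 26 regulators were higher, and 0 and 5 lower, where 7.48% of all 9499 genes were higher and 7.55% lower. The median log2 ratio was -0.13 for the further family genes and -0.32 for the regulators, against -0.15 for all genes. BCL2L14 had 249 UMIs in iNKT cells and 0 in mature cells, at least 5.49-fold higher with mature cells set at 3 counts over the group. ENDOG, a mitochondrial nuclease of the death machinery list, was 2.89-fold lower (1.89 to 4.29). CASP9, the initiator caspase of this pathway, was 2.19-fold higher (1.14 to 4.84) with 9 UMIs in mature cells. REL, an NF-kB subunit, stood at 60.6 and 230 CPM, 3.79-fold lower (3.50 to 4.11), alongside lower MYB (3.88-fold), TCF7 (2.78-fold) and TCF12 (2.72-fold). None of 4 caspase inhibitors and none of 10 death receptor genes differed 2-fold.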

How the data were processed

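Pig thymocytes were profiled by droplet single-cell RNA sequencing with 1 library per group. The deposited matrices hold whole-number UMI counts per gene and barcode, not normalized, per the file headers. The tools were Cell Ranger 3.1 and Seurat 3.1, per the submitters' processing notes, and the genome build was not given in the sources used here. In all, the total thymocyte library held 9112 barcodes and 29723207 UMIs, the iNKT library 12097 and 54457966, and 41 barcodes occurred in both. Kept cells had at least 500 genes and at most 10% mitochondrial UMIs. Scrublet called 0 and 2 doublets, so calling did not work and doublets remain. Each library was clustered on its own (scanpy 1.11.5, igraph 0.11.9; 2000 variable genes, 30 components, 15 neighbours, Leiden resolution 1) without the list genes that are not markers. A cluster took a name from at least 3 markers that exceeded the median of the other clusters 2-fold, with no other class holding more of its 10 leading genes. A leading gene had to be seen in at least 5% of the cluster's cells, a condition set after the clusters were seen because 1 haemoglobin-rich cell had put globin genes in the lead. UMIs were summed per group and divided by the group's total (CPM). Ratios carry exact conditional binomial, CPM exact Poisson and shares exact Clopper-Pearson intervals at 95%. No test across replicates could be run. TMM factors came from edgeR 4.0.16. Tables of symbols by gene ID named 687 genes that the deposited list left unnamed. The interval method was tested on simulated data.

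The members and gene lists were chosen with earlier results of these data known. The named genes were the members, up to 4 genes per list with the largest change of at least 2-fold between mature and double-positive-like or iNKT and mature cells, and 6 genes by likeness; BID, VDAC3, the caspase inhibitors, and BMF and BAD outside the first comparison were added after their values were seen. The ratio and co-detection planned for BCL2 were not run, and pairs of BCL2L1, BCL2A1 and PMAIP1 took their place. Some genes of the fixed lists are not reported here.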

Additional observations from a re-analysis of the deposited data

How the results depend on the processing

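Under the alternatives, 44 recomputed values of the main results stayed within counting error or kept their count and 13 moved, as did 186 and 50 values of single genes and lists. BCL2L1 kept its sign in every alternative run of the 5 planned comparisons. Its log2 ratio between mature and double-positive-like cells was -3.67 and became -4.65 with at most 5% mitochondrial UMIs (585 double-positive-like cells left), -4.12 without the highest doublet scores, -3.16 with cells thinned to 2000 UMIs and -3.19 with groups set by UMI gates. The count of members that differed 2-fold in that comparison fell to 1 (BCL2L1) at Leiden resolution 2. Between mature and post-selection-like cells it became 1 with at least 200 genes per cell (BCL2A1) and 1 at resolution 2 (BCL2L1), and between post-selection-like and double-positive-like cells 3 with UMI gates (107 gated cells; BCL2L1, BCL2A1, PMAIP1). Between iNKT and mature cells it was 0 with at most 5% mitochondrial UMIs, 1 without the highest doublet scores and 1 after subtraction of the RAG1 share of the double-positive-like level from mature cells (BCL2A1 in both), 1 at resolution 2 and 1 with TMM factors (BCL2L1 in both). The cause was not tested. BCL2A1 reached 2-fold between iNKT and mature cells in 7 of 11 alternatives and between mature and double-positive-like cells in 8 of 9. PMAIP1 between mature and double-positive-like cells ran from -0.27 to 1.495 on the log2 scale. Gates used TOP2A alone for dividing cells. The comparison of double-positive-like with early cells was not rerun under the alternatives. That of iNKT with gamma-delta T-like cells was rerun only with the RAG1 subtraction. The alternatives without dividing, double-positive-like, HLA-DRA-led or cytotoxic clusters and the RAG1 subtraction were chosen after seeing the data. No paired analysis was possible because each group is 1 library, and for the same reason no replicate could be left out.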
